A study of Xenopus laevis with 6 samples.

Results

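One of the 6 tissue blocks in this series, that of the frog numbered saline 1, gave far lower signal for several pituitary hormones than the others. The 8 probe sets described here are the other annotated transcripts that were low in the same block. A probe set is a group of oligonucleotides on an Affymetrix array that together read 1 transcript. A probe set was included when its deposited log2 signal in saline frog 1 lay at least 1.5 below the lowest of the other 5 frogs and it carried a single gene symbol. Of 15495 such probe sets, 19 met this distance (0.123%). Of these, 11 belonged to 5 hormone genes that were set aside beforehand together with hormone-processing and secretory granule genes (16 genes in all, of which 13 were measured), leaving 8 probe sets of 7 genes. The transcripts were thus chosen by the signal of saline frog 1 against the others, so its low signals are given as a description and carry no test. They also come from a single animal.

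All animals were juvenile *Xenopus laevis* that weighed 0.8 g on average. The 3 saline frogs (1 to 3) received 0.6% saline into the brain ventricles and the 3 leptin frogs (4 to 6) received recombinant leptin of the same species, dosed at 20 ng for each g of body weight. The preoptic area, hypothalamus and pituitary were dissected together 2 h later, and each frog was read on 1 array. The labels number the frogs separately and name no batch, genotype or strain. The array of saline frog 1 did not stand apart in its summary values: its median log2 signal was 7.44, against 7.36 to 7.46 on the others, and its correlations with them over 32539 probe sets ran from 0.983 to 0.991. The 3'/5' log2 ratio of its *gapdh* control was 0.44, within the 0.35 to 0.51 of the other arrays. The distance of 1.5 below all others was met by 8 probe sets on the array of leptin frog 6, 6 on saline frog 3, 2 on saline frog 2, 1 on leptin frog 5 and 0 on leptin frog 4.

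The pituitary hangs below the hypothalamus and joins an anterior lobe, derived from oral epithelium, to an intermediate lobe and a neural lobe. Cells of the anterior lobe make growth hormone, prolactin, gonadotropins, thyrotropin and ACTH, and melanotropes of the intermediate lobe make MSH from the same *pomc* precursor as ACTH. The diencephalon also forms the light-sensitive pineal complex of frogs and, in the embryo, the retina, and photoreceptors of both express proteins of the phototransduction cascade. This species is allotetraploid, and .L or .S after a symbol tells whether the gene lies on the long or the short chromosome of a homeologous set. Of the 7 genes, 5 are .L copies and 2 are .S copies.

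The 7 genes were not all of one kind. A hormone gene (*gh2*), a transcription factor of melanotropes and of brain regions (*pax7*) and an epithelial adhesion gene (*epcam*) are known from the pituitary. The genes *rbp4l* and *pde6h* are known from photoreceptors, and *hprt1* and *trappc5* are housekeeping genes. By known role, a name such as pituitary-dependent covers only some of them, and they are called here the transcripts low in saline frog 1. In a block of mixed tissue, fewer cells of a type and less RNA per cell cannot be told apart.

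The lowest signal relative to the other frogs belonged to *gh2.S*, an additional growth hormone gene copy. It read 5.92 on the log2 scale in saline frog 1, against 10.5 and 12.3 in saline frogs 2 and 3 and 11.4, 11.4 and 11.2 in leptin frogs 4, 5 and 6. The signal of saline frog 1 was 23.4-fold below the lowest of the others. As no measure of background was used, folds hold for the deposited signals, and a transcript near background can be lower than its signal shows. In saline frog 1 this probe set lay at percentile 30.6 of all probe sets, while the median of the other frogs lay at percentile 94.6. Among the genes set aside, the other growth hormone copies had distances of 7.34 and 2.30 (probe sets of *gh1.L*) and 7.02 (*gh1.S*), and the luteinizing hormone subunit *lhb.L* had 2.65. The copies are close relatives, and whether the *gh2.S* probe set also reads the *gh1* transcripts was not tested.

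The paired-homeobox factor *pax7*, which in the mouse directs the melanotrope fate and is also active in parts of the brain, was represented by *pax7.L*. It read 5.94 in saline frog 1, 7.66 and 8.98 in saline frogs 2 and 3, and 7.99, 8.31 and 8.91 in leptin frogs 4, 5 and 6. Saline frog 1 lay 1.72 below the lowest other frog, a 3.29-fold lower signal. In a block of mixed tissue the *pax7.L* signal cannot be assigned to melanotropes. The *pomc* copies, which melanotropes express, were 4.75 (*pomc.L*) and 5.13 (*pomc.S*) below the lowest other frog. Signal remained for both in saline frog 1, and in a block of mixed tissue it cannot be assigned to the pituitary. There *pomc.L* read 9.11 (percentile 72.4 of all probe sets) and *pomc.S* 8.28 (percentile 61.5), against 13.9 to 14.4 and 13.4 to 13.9 in the others.

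The cell adhesion molecule *epcam*, found on epithelial cells, was low in both copies but passed the distance only in one. The *epcam.S* probe set read 6.20 in saline frog 1, 7.93 and 9.14 in saline frogs 2 and 3, and 8.57, 8.61 and 7.89 in leptin frogs 4, 5 and 6. The *epcam.L* probe set read 5.74 in saline frog 1 and from 6.21 to 7.61 in the others, a distance of 0.47.

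**Figure D1:**
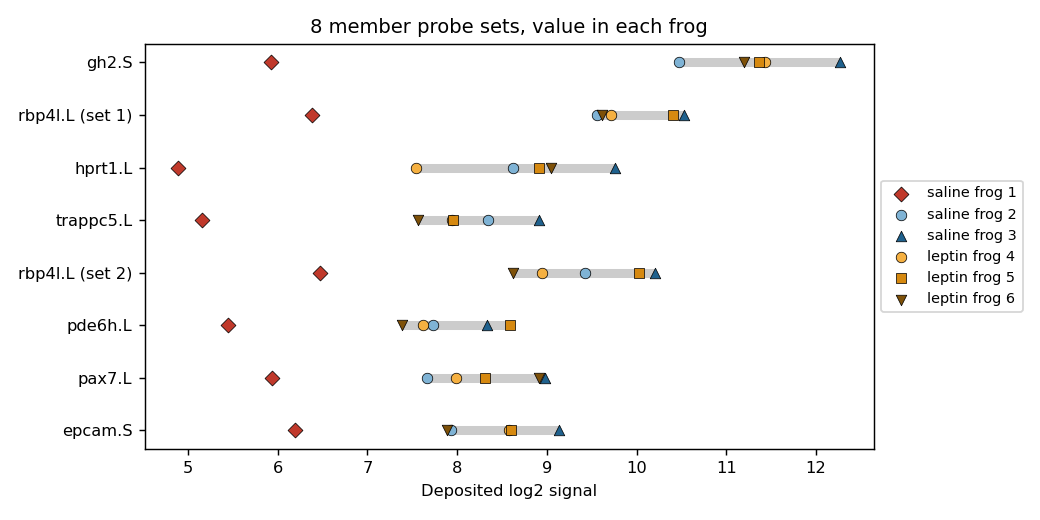
Deposited log2 signal (x axis) of the 8 probe sets (y axis) in each of the 6 frogs, with a grey bar over the range of the 5 frogs other than saline frog 1. Saline frog 1 (red diamonds) lies between 4.89 and 6.47 and below every bar, and saline frog 3 (dark blue triangles) is the highest in 7 of the 8 probe sets.

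The lipocalin gene *rbp4l*, related to purpurin, a retinol carrier secreted by photoreceptors in fish and chick, was low in both of its probe sets. The first *rbp4l.L* probe set read 6.38 in saline frog 1, 9.56 and 10.5 in saline frogs 2 and 3, and 9.72, 10.4 and 9.62 in leptin frogs 4, 5 and 6, so that saline frog 1 was 9.05-fold below the lowest other frog. The second read 6.47 in saline frog 1 and from 8.62 to 10.2 in the others, a 4.46-fold lower signal. Both belong to the same transcript cluster on the array and are not independent readings. With *gh2.S*, these were among the brighter transcripts of the group, at percentiles 80.5 and 76.8 by the median of the other frogs.

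The gene *pde6h* encodes the inhibitory subunit of the cone phosphodiesterase, the enzyme that lowers cGMP when a cone absorbs light. The *pde6h.L* probe set read 5.45 in saline frog 1, 7.73 and 8.33 in saline frogs 2 and 3, and 7.62, 8.59 and 7.38 in leptin frogs 4, 5 and 6. Saline frog 1 was 3.82-fold below the lowest other frog. The *pde6h.S* probe set was dim on all arrays. It read 4.22 in saline frog 1 and from 4.47 to 5.63 in the others, a distance of 0.26.

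The remaining genes have no known tie to either tissue. The vesicle-tethering gene *trappc5*, a subunit of the TRAPP complex on the route from the endoplasmic reticulum to the Golgi, read 5.16 in saline frog 1 (*trappc5.L*), 8.34 and 8.91 in saline frogs 2 and 3, and 7.95, 7.95 and 7.56 in leptin frogs 4, 5 and 6. A further *trappc5.L* probe set of the same transcript cluster lay 1.46 below the lowest other frog, just outside the distance. The purine salvage enzyme gene *hprt1* read 4.89 in saline frog 1 (*hprt1.L*), 8.62 and 9.76 in saline frogs 2 and 3, and 7.54, 8.91 and 9.05 in leptin frogs 4, 5 and 6.

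The probe sets of *hprt1.L* disagreed. Besides the member, 2 others carry the same symbol. One read 10.4 in saline frog 1 and 10.4 to 10.8 in the others, and the other read 10.05 against 9.67 to 9.93. Neither was low in saline frog 1, so the low *hprt1.L* reading holds for 1 of 3 probe sets and is not shown for the gene. Over the 7 genes, 5 probe sets were not members, and saline frog 1 was the lowest frog in 3 of them (*trappc5.L*, *epcam.L* and *pde6h.S*).

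**Figure D2:**
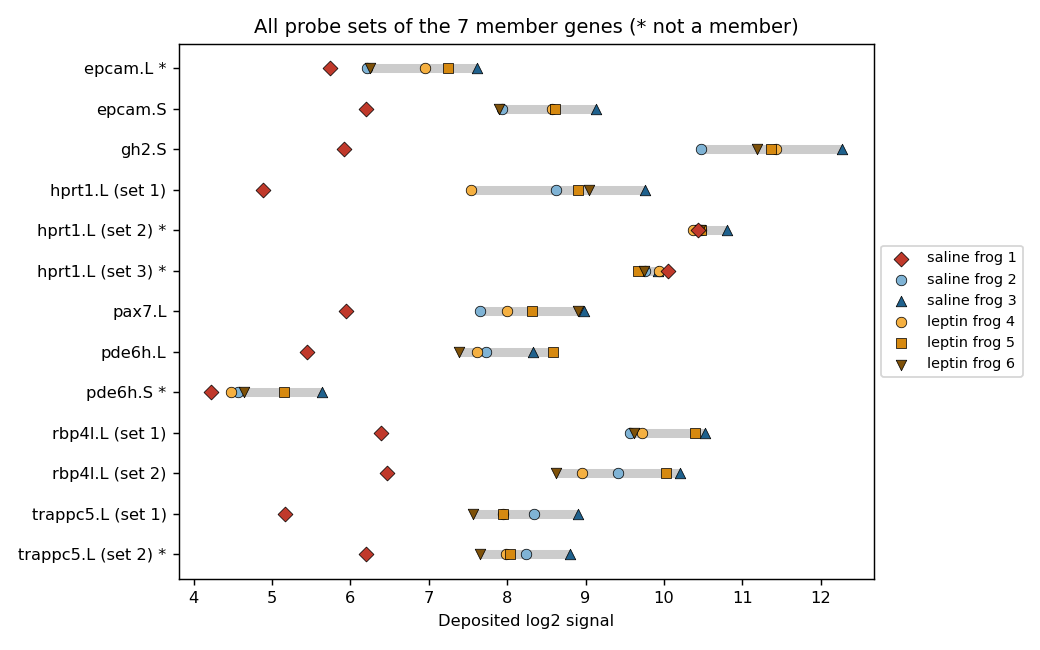
Deposited log2 signal (x axis) of the 13 probe sets that carry the symbols of the 7 genes (y axis), where an asterisk marks the 5 that did not meet the distance, with each frog as a point and the range of the other 5 frogs as a grey bar. The *hprt1.L* sets 2 and 3 show saline frog 1 among or above the other frogs, unlike the other 11 probe sets.

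Around the distance of 1.5 the values ran on without a break. Just inside lay the second *rbp4l.L* probe set (2.16), *pde6h.L* (1.93), *pax7.L* (1.72) and *epcam.S* (1.69). Just outside lay *rbp3.L* (1.46), which encodes the retinoid carrier between photoreceptors and pigment epithelium, the further *trappc5.L* probe set (1.46), the photoreceptor calcium sensor *rcvrn.2.L* (1.42) and the sorbitol dehydrogenase *sord.L* (1.29). In all, and without the genes set aside, 9 further probe sets lay between 1 and 1.5 below the lowest other frog. The others, chosen after their values were seen, were *wdr24.L* (1.19), the retinol dehydrogenase *rdh5.S* (1.18), the transcription factor *tfap2b.L* (1.18), *eps8l1.L* (1.03) and *ptgds-b* (1.03), a prostaglandin D synthase copy.

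A further 9 probe sets without a single symbol met the same distance and are unnamed here. They read from 4.03 to 7.34 in saline frog 1 and from 6.32 to 10.9 in the other frogs, with distances of 1.51 to 4.56.

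The known roles were set against gene lists, with each gene read by its brightest probe set in counts and list means. Over all 9273 genes, saline frog 1 was the lowest of the 6 frogs in 15.6% and lay at least 0.5 below the lowest other frog in 0.604%. In the list of pineal and retina genes, it was the lowest in 4 of 7 measured genes, and 3 of the 7 passed 0.5. These were *pde6h.L*, the cone arrestin *arr3.L* (4.99 in saline frog 1 and 5.94 to 7.11 in the others) and the cone transducin *gnat2.S* (5.22 and 6.05 to 7.17). The fourth was *crx.L*, a transcription factor of photoreceptors and pinealocytes (4.72 and 5.11 to 6.06). The rule chose *pde6h.L* by its low signal in saline frog 1, so its place in these counts was fixed beforehand. That gene also lowers the list mean in this frog. The melatonin synthesis genes did not follow: *aanat.L* read 8.34 in saline frog 1 and 8.13 to 9.32 in the others, and *tph1.L* 4.52 and 4.47 to 5.11. The list mean was 5.78 in saline frog 1 and 6.39 to 7.15 in the others. A defining gene of rods, the rod transducin *gnat1.L*, read 7.21 in saline frog 1 by its brightest probe set, inside the 6.74 to 7.29 of the others, and 5.71 by its other probe set, inside 5.44 to 6.06.

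A longer list of photoreceptor and visual cycle genes was drawn up after these values were seen and holds the members *rbp4l.L* and *pde6h.L* and most of the shorter list, so it is no independent support. Saline frog 1 was the lowest in 12 of its 24 measured genes (15.6% over all genes), and 7 passed 0.5 (0.604% over all genes). Beyond those named, they included *rpe65.L*, the isomerase that regenerates 11-cis retinal (8.86 in saline frog 1 and 9.58 to 11.2 in the others). The red cone opsin *opn1lw.L* read 6.39 and 6.75 to 7.92. Rod arrestin was higher in saline frog 1 than in any other frog in both copies, at 5.02 and 4.37 to 4.72 in the others for *sag.S*, and at 5.74 and 4.23 to 4.64 for *sag.L*. Probe sets of one gene could differ: the brightest *rlbp1.L* probe set read 9.11 in saline frog 1 and 8.99 to 9.70 in the others, whereas another read 6.87 and 7.60 to 10.02.

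**Figure D3:**
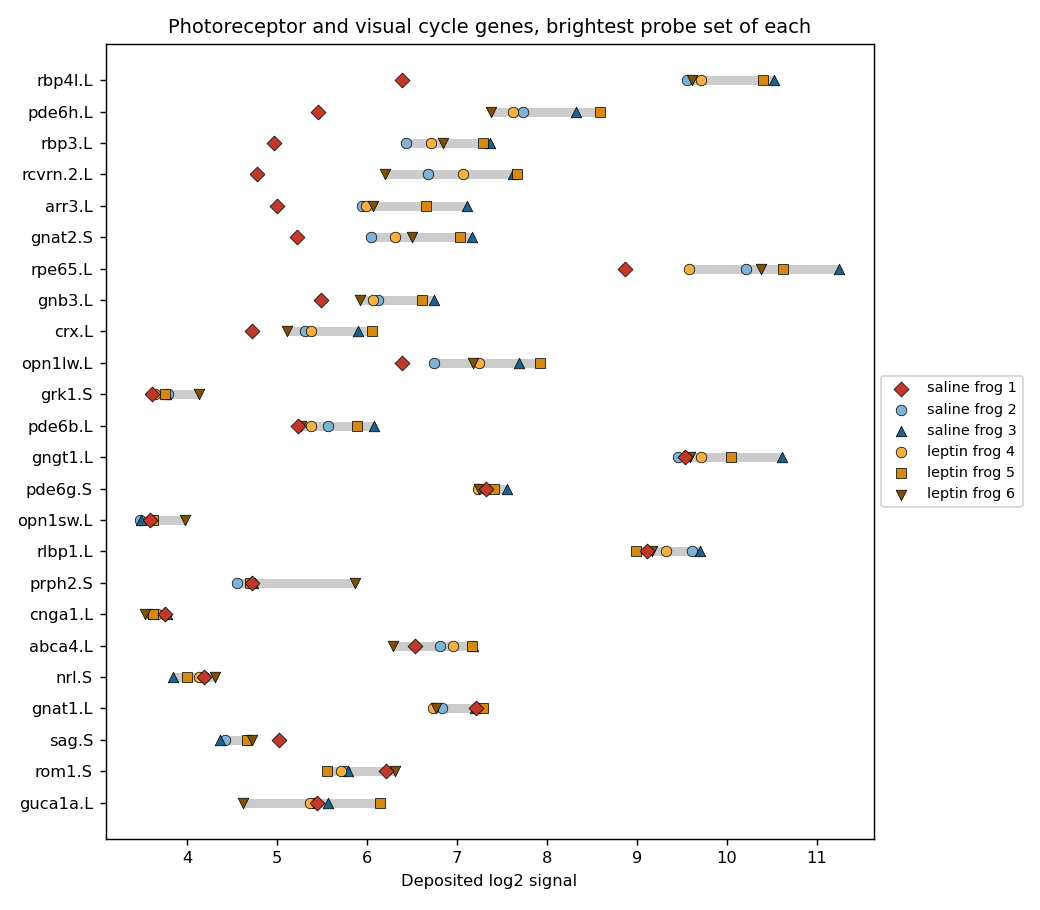
Deposited log2 signal (x axis) of the 24 measured photoreceptor and visual cycle genes (y axis, brightest probe set of each, ordered by the distance of saline frog 1 below the lowest other frog), with each frog as a point and the range of the other 5 frogs as a grey bar. Saline frog 1 lies below the bar in the upper 12 genes, led by *rbp4l.L* and *pde6h.L*, and within or above it in the rest, such as *gnat1.L* and *sag.S*.

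Among transcription factors of the pituitary few were low by a wide distance. Of 17 measured factors, saline frog 1 was the lowest frog in 8 and passed 0.5 in 1, *pax7.L*, a member whose place in both counts the rule fixed. Over all genes these shares were 15.6% and 0.604%. The next distances were small: 0.35 for *gata3.S* (6.92 in saline frog 1 and 7.27 to 8.78 in the others), 0.33 for *gata2.L* (6.72 and 7.05 to 7.85), 0.30 for *otx2.L* (8.07 and 8.37 to 9.70) and 0.25 for *pitx3.L* (3.58 and 3.83 to 4.18), of which *gata2* specifies thyrotropes and gonadotropes in the mouse. The list mean was 7.64 in saline frog 1 and 7.87 to 8.24 in the others. Of the genes set aside, the early pituitary factor *lhx3.L* read 4.20 and 4.94 to 6.23.

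In the secretory pathway and granule list, saline frog 1 was the lowest in 6 of 26 genes, against 15.6% of all genes. The list means were 9.74 in that frog and 9.73 to 9.81 in the others. The vesicle GTPase *rab3d.L* had the widest distance (7.33 and 7.96 to 8.34). The probe sets with the next distances were *sel1l.L* (0.22), *syt4.L* (0.06) and *creb3l2.L* (0.06). The brightest *sel1l.L* probe set, used in the count, was not low: it read 9.74 in saline frog 1, inside the 9.61 to 9.78 of the others. Of the 13 measured genes set aside, hormones included, saline frog 1 was the lowest in 10 and 7 passed 0.5. Over all genes these shares were 15.6% and 0.604%. Of the 13, 5 were hormone genes that met the distance of the rule, so their place in both counts was fixed beforehand. These counts are therefore a description only. Some granule genes among the 13 were lowest in saline frog 1, as were *chga.L* (12.5 and 12.9 to 13.3), *chga.S* (11.3 and 11.7 to 11.9) and *scg5.L* (12.1 and 12.3 to 12.9). A dimmer *chga.L* probe set read 8.21 in saline frog 1, inside the 8.06 to 8.66 of the others. Other granule genes were not the lowest in that frog. Secretogranin *scg2.L* read 13.6 there and 13.5 to 13.6 in the others, and the carboxypeptidase *cpe.L* 13.3 and 13.2 to 13.3. The prohormone convertase *pcsk2.S* read 7.75 and 8.78 to 9.78, whereas the brighter *pcsk2.L* read 10.4 and 10.7 to 11.1, a distance of 0.32. The glycoprotein hormone subunit *cga.S* read 4.16 and 11.2 to 12.2.

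Of 30 listed receptors through which the brain and feedback hormones act on the pituitary, 10 were measured, and these were not low in saline frog 1. In a block of mixed tissue their signal cannot be assigned to the pituitary. Saline frog 1 was the lowest frog in 0 of the 10 measured genes, against 15.6% of all genes. The list mean was 7.59 in that frog and 7.43 to 7.52 in the others. The largest distances in the list were at or below 0, as for the dopamine receptor *drd2.L* (5.91 and 5.91 to 6.24), *trhr3.S* (8.38 and 8.24 to 8.52), *gabbr1.L* (12.4 and 12.2 to 12.5) and *gnrhr.L* (6.55 and 6.32 to 6.95). In the list of other secreted products saline frog 1 was the lowest in 3 of 11 genes, against 15.6% of all genes. The widest distances were those of *igfbp5.L* (0.33), *vip.L* (0.27) and *fst.L* (0.08), ahead of *nucb2.L* (9.71 in saline frog 1 and 9.69 to 9.85 in the others).

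Epithelial adhesion genes other than *epcam* were at most slightly low. With *epcam* included, saline frog 1 was the lowest in 6 of 15 measured genes (15.6% over all genes), with list means of 6.26 and 6.40 to 6.70. The 1 gene past 0.5 (0.604% over all genes) was the member *epcam.S*, whose place in both counts the rule fixed. The next was the tight junction gene *cldn3.L* (5.95 and 6.39 to 7.30), chosen after its values were seen. Classical E-cadherin, *cdh1.S*, was dim in all frogs (3.28 to 3.70).

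Markers of the hypothalamus were present in saline frog 1. It was the lowest frog in 6 of 16 hypothalamic transcription factors (list mean 8.37, and 8.40 to 8.83 in the others) and in 2 of 6 neuropeptides (9.76, and 9.86 to 10.5). The share over all genes was 15.6%, and both list means were lower than in any other frog. Of the neuropeptides, *trh.S*, chosen after its values were seen, had the widest distance (9.40, and 9.63 to 10.7 in the others). The neuropeptide *pmch.L* and the factor *nkx2-1.L*, both chosen after their values were seen, read 10.2 and 9.77 in saline frog 1, against 10.3 to 11.9 and 9.79 to 10.2 in the others. The factor *tbx3.S*, chosen in the same way, was the only one of the 16 past 0.5 (6.63, and at least 7.19 in the others). For pituicytes and tanycytes saline frog 1 was the lowest in 4 of 7 genes (8.80, and 8.90 to 9.24). The counts for the other markers were 3 of 10 for neurons, 2 of 5 for astrocytes and radial glia, 2 of 6 for endothelium and pericytes, 3 of 11 for fibroblasts, meninges and cartilage, and 3 of 6 for choroid plexus and ependyma. They were 0 of 3 for oligodendrocytes, 0 of 9 for skeletal muscle and 0 of 5 for pallium.

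Many markers of erythrocytes and of leukocytes and microglia moved the other way in this block. Saline frog 1 was the lowest in 0 of 11 erythrocyte genes and the highest of the 6 frogs in 9. For leukocytes and microglia, saline frog 1 was the lowest in 0 of 6 genes and the highest in 4. It was the highest in 18.8% of all genes. The erythrocyte list mean was 11.0 in that frog and at most 10.5 in the others. For leukocytes and microglia the list mean was 8.13 and 7.54 to 7.82. The margins of erythrocyte genes, chosen after their values were seen, were uneven. Saline frog 1 was the highest by 0.98 for *hba3.L* but by only 0.011 for *hba1.S* and 0.015 for *slc4a1.L*. The globin *hbg1.L* read 14.80 there, inside the 14.76 to 14.89 of the others. Over all single-symbol probe sets, saline frog 1 lay at least 1.5 above the highest other frog in 1 (0.00645%) and at least 1 above it in 11 (0.071%). The part of blood cells and microglia in the low signals of the 8 probe sets was not tested.

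The other 5 frogs also differed among themselves in these transcripts. The range over the 5 frogs ran from 0.97 to 2.22 across the 8 probe sets, against a median of 0.36 over all probe sets with a single symbol. Saline frog 3 was the highest of the 5 in 7 of the 8 probe sets, where 31.4% of all single-symbol probe sets have that frog highest, and leptin frog 5 was the highest for *pde6h.L*. Saline frog 3 was also the highest for all 11 hormone probe sets that were set aside. The distance rule placed the lowest of the 5 frogs but not the highest, and members that share a tissue or a transcript cluster are not separate observations of this order, so it is given without a test.

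The order of the 5 frogs was not the same for every member. The 2 highest frogs were saline 3 and leptin 5 in 3 of 3 member probe sets of *rbp4l.L* and *pde6h.L*. Over all 48 probe sets of the longer photoreceptor list this was so for 27, and over the 10 of them at least 0.5 below the other frogs, members included, for 9, against 13.1% of all single-symbol probe sets. It was also so for 5 of the 11 hormone probe sets. The longer list was drawn up after these values were seen, and its 48 probe sets belong to 24 genes. The 10 were also picked by the low signal of saline frog 1. These shares are therefore a description and no support for a shared order. Leptin frog 4 was among the highest 2 in 4 of the 48 photoreceptor probe sets and in 6 of the 11 hormone probe sets. No share over all probe sets was counted for this frog, and the 11 belong to 5 genes. These counts are therefore not compared. For *gh2.S* the highest were saline frog 3 and leptin frog 4, for *pax7.L* and *hprt1.L* saline frog 3 and leptin frog 6, for *trappc5.L* saline frogs 2 and 3, and for *epcam.S* saline frog 3 and leptin frog 5. The retinoid genes *rpe65.L* and *rdh5.S*, the second of them chosen after its values were seen, were lowest in saline frog 1 and next lowest in leptin frog 4 (9.58 and 7.38). In these frogs the prostaglandin D synthase *ptgds.S*, chosen in the same way, read 9.70 and 10.3, against 13.6 to 14.3 in the other 4.

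**Figure D4:**
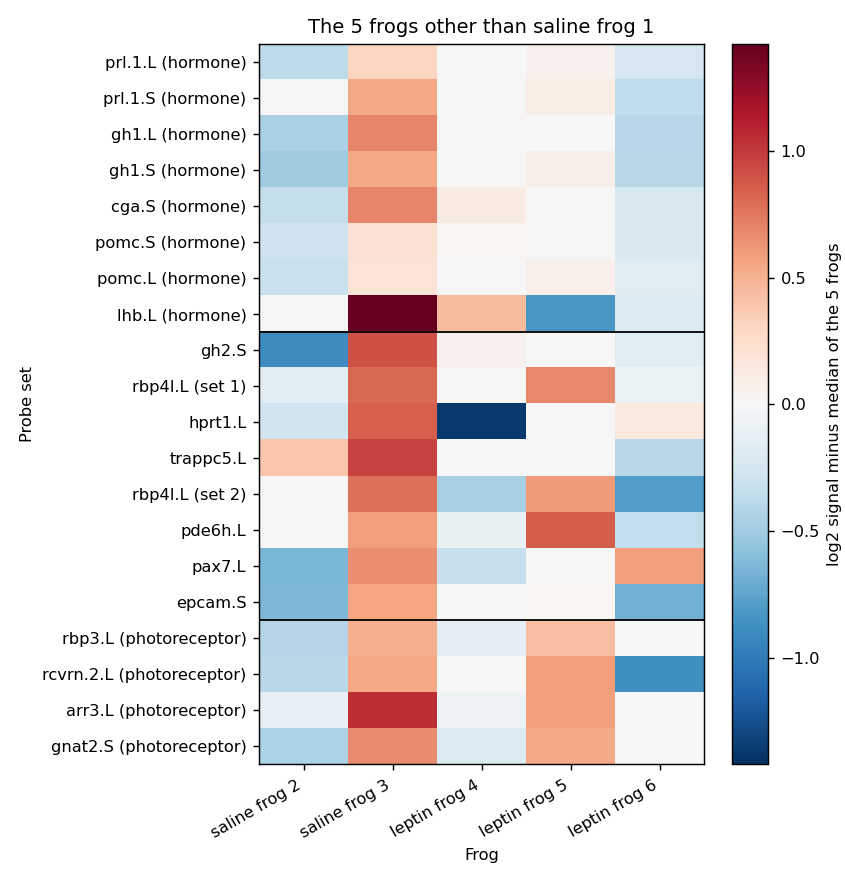
Log2 signal minus the median of the 5 frogs other than saline frog 1 (colour scale), by frog (columns) for the hormone probe sets set aside (upper block, widest distance of each symbol), the 8 probe sets (middle block) and 4 further photoreceptor genes (lower block). Saline frog 3 is above the median in every row shown, and leptin frog 5 is raised in the rows of *rbp4l.L*, *pde6h.L* and the lower block but not for *gh2.S*. The 4 genes of the lower block were chosen after their values were seen. In the longer photoreceptor list, saline frog 3 and leptin frog 5 were the highest 2 in 16 of 24 genes.

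The 7 genes lie on 7 different chromosomes of the RefSeq assembly. Of the 14 nearest measured genes on either side of them in that gene order, 0 met the distance. Saline frog 1 differed from the median of the others by -0.33 to 0.53 in these neighbours. The gene next to *rbp4l.L* is *pde6b.L*, a subunit of the rod phosphodiesterase, with a distance of 0.02.

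The series asks what leptin changes in this block, and the low readings of saline frog 1 enter that comparison. Leptin was therefore compared with saline in the 5 frogs other than saline frog 1 (2 saline and 3 leptin frogs), whose treatment the choice of transcripts did not use. Of these, saline frog 3 also stood apart. It lay at least 1.5 above every other frog in 28 single-symbol probe sets, against 0 to 4 for each other frog. Its skeletal muscle list mean was 9.12, and 6.10 to 6.78 in the other frogs. Its pallium list mean was 8.02, and 9.04 to 9.37 in the others. None of the 8 probe sets passed limma at an adjusted p of 0.05 (0 of 8, where 0% of 32539 probe sets passed), with adjusted p from 0.962 to 0.996. At an unadjusted limma p under 0.05 there was 1, *trappc5.L*, which was lower with leptin, against 3.26% of all probe sets in either direction and 1.74% lower. The leptin minus saline difference was below 0 in 7 probe sets and above 0 in 1 (*pax7.L*), with a median of -0.17, and the median over all probe sets was 0.01.

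For *gh2.S* the mean log2 signal over saline frogs was 11.4 ± 1.27 (SD, n = 2), while that over leptin frogs was 11.3 ± 0.12 (SD, n = 3), a difference of -0.04 (SE 0.51, 95% interval -1.32 to 1.24). The difference was -0.13 (SE 0.37) and -0.61 (SE 0.47) for the probe sets of *rbp4l.L*, -0.16 (SE 0.40) for *pde6h.L*, 0.09 (SE 0.45) for *pax7.L*, -0.18 (SE 0.41) for *epcam.S* and -0.69 (SE 0.57) for *hprt1.L*. In each of these the leptin and saline frogs overlapped. The *trappc5.L* probe set averaged 8.63 ± 0.40 (SD, n = 2) over saline frogs and 7.82 ± 0.22 (SD, n = 3) over leptin frogs, a difference of -0.81 (SE 0.22, 95% interval -1.35 to -0.26, limma adjusted p = 0.962). It was the only one of the 8 in which the groups did not overlap, which held for 20.1% of all probe sets, 10.3% with leptin lower. The intervals of the others reached from 0.92 to 1.42 to either side of the estimate. These intervals are not adjusted for the number of probe sets, so changes of that size or larger could be missed with 5 frogs.

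With saline frog 1 included, all 8 differences turned positive or stayed so, from 0.35 (*trappc5.L*) to 1.78 (*gh2.S*), with a median of 0.72, since that frog lowers the saline mean. As this frog chose the transcripts, nothing is read from these values. None passed limma with 6 frogs (0 of 8, and 0% of all probe sets), and 0 of 8 had an unadjusted limma p under 0.05, against 4.71% of all probe sets.

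**Figure D5:**
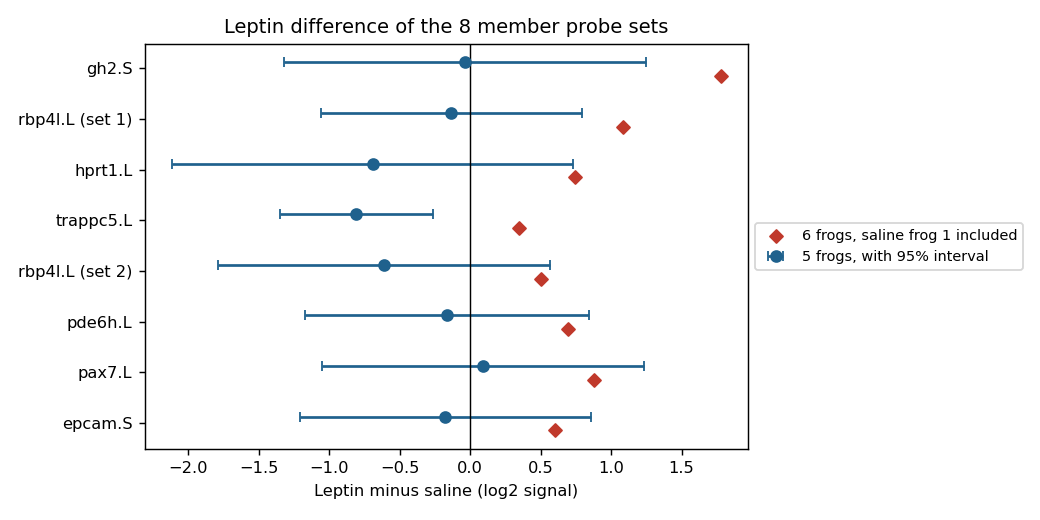
Leptin minus saline difference in log2 signal (x axis) of the 8 probe sets (y axis), from limma over the 5 frogs other than saline frog 1 (blue points, bars for the 95% interval) and over all 6 frogs (red diamonds). The blue intervals include 0 except for *trappc5.L*, and every red diamond lies above 0.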

How the data were processed

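The authors deposited 1 log2 signal for each probe set on each array. RMA, affy and limma are listed in the submitters' processing notes, with versions and settings not given in the sources used here. The signals were used without further scaling. The 96 control probe sets were left out, leaving 32539, of which 15495 have 1 symbol, 279 several and 16765 none in the array annotation. Entrez identifiers matched 15384 single-symbol probe sets to the RefSeq table of Xenopus_laevis_v10.1, which updated 2 symbols and served for names and gene order. Without .L and .S these are 9273 genes. Leptin and saline were compared in limma 3.58.1 (R 4.3.3, lmFit and eBayes, two-sided) over all tested probe sets with Benjamini-Hochberg adjustment at 0.05. The steps were run on simulated data with independent errors for each probe set. These data held no tissue differences shared by many probe sets, so they cannot show how the steps behave with such differences. Arrays have no sequencing depth, and their number limits the precision. The labels do not say whether frogs shared a batch, and p-values measure the spread between these arrays.

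The members, the rule and the 19 gene lists were chosen with earlier results of these data known. Named genes were the members, members of the lists, the 4 probe sets on each side of the distance, and up to 4 non-members with the widest distance in each pathway list. Each named gene was read by its probe set with the widest distance, except that genes of the photoreceptor and marker lists were read by their brightest, as in the list counts, unless said otherwise. Where another gene is named, the text says that its values were seen first. Alternatives were other distances, the median of the other frogs, array centring, quantile normalization, the brighter 50% of probe sets, robust eBayes with a trend, and leaving out each frog. Promoter and protein sequences were not used here.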

Additional observations from a re-analysis of the deposited data

How the results depend on the processing

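The 8 probe sets remained members under array centring (10 in all), quantile normalization (9) and in the brighter 50% of probe sets (8). There were 17 at a distance of 1.0, 5 at 2.0 and 38 against the median of the other frogs, and leaving out 1 of the other frogs gave from 9 to 20, the most without leptin frog 4. In that last case the additions included *ptgds.S* and *rlbp1.L*, which are low in leptin frog 4 too. No member passed the adjusted threshold for leptin under any alternative. At an unadjusted p under 0.05 there were 0 with all 6 frogs and 1 to 2 when 1 frog was left out, with 2 without saline frog 2 or leptin frog 5. A lone saline frog is assumed to vary like the leptin frogs. The median leptin difference was 0.72 with all 6 frogs and ran from -0.86 (without saline frog 2) to 0.24 (without saline frog 3). The 6-frog differences that changed sign were 1.78 (*gh2.S*), 1.09 and 0.50 (*rbp4l.L*), 0.74 (*hprt1.L*), 0.35 (*trappc5.L*), 0.70 (*pde6h.L*) and 0.60 (*epcam.S*), as that frog joins the saline group. Leaving out 1 frog gave -0.94 to 0.86 for *gh2.S*, -0.62 to 0.35 for the first *rbp4l.L* probe set, -0.53 to 0.13 for *pde6h.L*, -0.57 to 0.75 for *pax7.L* and -0.78 to 0.43 for *epcam.S*. Their direction is therefore not settled. With 1 frog left out, the difference stayed below 0 for *trappc5.L* (-1.09 to -0.52), *hprt1.L* (-1.26 to -0.12) and the second *rbp4l.L* probe set (-1.02 to -0.22). Each of these runs reuses most of the same frogs, so no direction is settled for these probe sets either. No paired analysis was possible because the saline and leptin frogs share no numbers.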

Other observations

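In the opposite direction, saline frog 1 lay at least 1 above the highest other frog in 11 single-symbol probe sets (0.071%), and at least 1.5 above it in 1, *chrng.L*, which encodes the gamma subunit of the muscle acetylcholine receptor (6.95 in saline frog 1 and 4.84 to 5.18 in the others). Genes chosen here were chosen after their values were seen. Of the 11, several encode proteins of neutrophil granules: *prss57.L* (6.57, and 4.68 to 5.18 in the others), *prtn3.L* (7.54, and 4.85 to 6.45), 1 of the probe sets of myeloperoxidase *mpo.L* (8.58, and 7.34 to 7.50), lysozyme *lyz.L* (7.88, and 5.11 to 6.84) and the gelatinase *mmp9.1.S* (7.51, and 4.98 to 6.34). The other *mpo.L* probe set read 5.72, inside 5.53 to 6.08, and *mpo.S* 6.62, inside 6.46 to 6.68. Over 7 measured genes listed for neutrophil granules after these values were seen, saline frog 1 was the highest in 6 and the lowest in 0. It was the highest in 18.8% of all genes. The exception was *mmp8.L* (4.93, inside 4.86 to 5.30). The listed *epx.L*, whose symbol stands for a peroxidase of eosinophils rather than neutrophils, was higher by only 0.004. Rod arrestin *sag.L* was also among the 11. The globin gene *hbe1.L* was also among the 11 (7.29, and 5.61 to 6.23).

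A further 4 probe sets without a single symbol lay at least 1.5 above the other frogs in saline frog 1.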
